A study of Mus musculus with 12 samples.

Results

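The NF-κB and chemokine genes of fibroblasts, 10 in all, were followed across 12 RNA sequencing libraries. Of these, 5 encode chemokines (*Ccl2*, *Ccl7*, *Cxcl1*, *Cxcl5*, and *Cxcl12*) and the others encode parts of the NF-κB pathway (*Nfkb1*, *Nfkb2*, *Relb*, *Nfkbia*, and *Tnfaip3*). They were chosen by name, with earlier results of these data known, and 10 of 10 names were found among the 12591 genes tested. The cells were mouse embryonic fibroblasts of the C57 PER2::LUC strain, prepared from heterozygous knock-in animals in which the circadian clock protein PER2 is fused to luciferase. Confluent dishes received new medium for 24 h with 10 μM Deazaneplanocin A (DZ, an inhibitor of the methyl cycle enzyme AHCY), 1 mM adenine, or 1 mM S-adenosylmethionine (SAM, the methyl donor of the cell), and were compared with control dishes (CTL). There were 3 dishes in each of the 4 groups, and all of them, CTL included, contained 3.3 mM HCl, the vehicle of adenine. The study describes its PER2::LUC fibroblasts as immortalized and the replicates as dishes. The labels do not say whether the dishes came from separate embryos, so that p-values measure the spread between dishes.

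NF-κB is a family of dimeric transcription factors that wait in the cytoplasm until a receptor for tumour necrosis factor, interleukin 1, or a microbial product activates the IKK kinases. In the canonical branch IKK marks the inhibitor IκBα for destruction and frees RELA with p50, whereas in the other branch the precursor p100 is processed to p52, the partner of RELB. Among the genes that NF-κB switches on are chemokines, which attract leukocytes to the fibroblast, and its own inhibitors, which close a negative feedback loop.

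NF-κB binds a short DNA word known as the κB consensus: GGG, a purine, any 2 bases, 2 pyrimidines, and CC, on either strand. The RefSeq promoter table, built on GRCm38.p6 and covering 250 bases before and 50 bases after each start site, was searched for this word because a shared word is the simplest feature that the members could have in common. It holds promoters for 5 of the 10 genes (*Cxcl1*, *Cxcl12*, *Nfkb2*, *Nfkbia*, and *Tnfaip3*), and *Ccl2*, *Ccl7*, *Cxcl5*, *Nfkb1*, and *Relb* were not matched. At least 1 promoter of 4 of these 5 genes held the word, against 9.55% of the 27025 genes of the table. The genes were picked as NF-κB and chemokine genes, so this share is a description and was not tested. The promoters with a match at the first listed start site are shown 5′ to 3′ with the matches in capitals, where a match on both strands or overlapping matches run together. They are *Cxcl1* (chr5:90890995-90891294, plus strand), *Nfkbia* (chr12:55492598-55492897, minus strand), *Tnfaip3* (chr10:19015361-19015660, minus strand), and *Nfkb2* (chr19:46304487-46304786, plus strand).

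Cxcl1: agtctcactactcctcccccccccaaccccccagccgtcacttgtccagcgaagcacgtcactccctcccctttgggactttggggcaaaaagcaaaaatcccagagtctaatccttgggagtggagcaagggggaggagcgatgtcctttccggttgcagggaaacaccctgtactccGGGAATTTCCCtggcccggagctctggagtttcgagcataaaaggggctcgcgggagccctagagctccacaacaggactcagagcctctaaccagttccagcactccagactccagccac

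Nfkbia: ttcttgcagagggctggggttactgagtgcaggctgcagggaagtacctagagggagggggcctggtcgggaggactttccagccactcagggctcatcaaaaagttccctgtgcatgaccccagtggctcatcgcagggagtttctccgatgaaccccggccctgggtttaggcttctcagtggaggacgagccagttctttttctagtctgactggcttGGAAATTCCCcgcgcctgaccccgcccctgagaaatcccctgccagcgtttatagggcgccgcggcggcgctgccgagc

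Tnfaip3: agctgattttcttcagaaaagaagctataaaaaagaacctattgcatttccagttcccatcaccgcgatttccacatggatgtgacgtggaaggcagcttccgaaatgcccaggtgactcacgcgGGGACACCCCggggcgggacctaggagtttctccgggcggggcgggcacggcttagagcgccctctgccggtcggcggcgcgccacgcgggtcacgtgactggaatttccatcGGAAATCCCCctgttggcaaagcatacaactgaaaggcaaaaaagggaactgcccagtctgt

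Nfkb2: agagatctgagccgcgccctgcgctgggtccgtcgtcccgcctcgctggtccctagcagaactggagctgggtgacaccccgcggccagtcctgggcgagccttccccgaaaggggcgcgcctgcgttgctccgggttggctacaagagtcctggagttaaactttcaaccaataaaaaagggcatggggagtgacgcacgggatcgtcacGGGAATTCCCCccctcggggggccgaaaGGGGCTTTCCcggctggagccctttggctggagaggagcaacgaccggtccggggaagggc

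The match of *Cxcl1* began 71 bases upstream of the start site and that of *Nfkbia* 29 bases upstream. In *Tnfaip3* the matches began 125 and 12 bases upstream, and in *Nfkb2* 39 and 11 bases upstream. The promoter of *Cxcl12* held no match in this window. A match is a property of the letters, and binding of NF-κB was not measured here.

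Expression is given as log2 CPM, the log2 of the counts per unit of sequencing depth (CPM) on library sizes normalized by the authors, so that 1 unit is a doubling. Between 45649534 and 56789090 reads fell on the tested genes in each library, and the members had between 196 reads (*Cxcl1*) and 130898 reads (*Cxcl12*) in a library. A gene was called changed under a Benjamini-Hochberg FDR of 0.01 over all genes in a limma model of the 4 groups. With plain read totals in place of the authors' scaling, the median change over all genes in SAM moved from -0.015 to 0.11 log2 units, so changes are stated on the authors' scale. The fibroblast identity was checked on marker genes. Of 10 fibroblast markers 8 were among the tested genes, with a summed level of 21841 to 22281 CPM in CTL, 27665 to 28259 in DZ, 24224 to 26540 in adenine, and 15862 to 17240 in SAM. *Dcn* and *Lum* were not among the tested genes. The study kept only genes that reached 1 CPM in every sample, so both lay under it in at least 1 sample. The lower sum in SAM came with a fall of *Fn1* (log2 fold change -1.58), while the other 7 markers were called higher under SAM, with a median of 0.41 over the 8. Under DZ 7 markers rose and 1 fell, and under adenine 5 rose and 1 fell. Of 12 leukocyte markers only *Cd68* was among the tested genes, and of 10 endothelial and epithelial markers 0 were. *Cd68*, a lysosomal protein abundant in macrophages, lay between 3.03 and 4.0 CPM in CTL, 2.73 and 3.78 in DZ, 10.8 and 12.3 in adenine, and 15.6 and 17.7 in SAM, and the part of these markers in the results below was not tested. In bulk RNA, fewer cells of a type and less RNA per cell cannot be told apart.

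All 5 chemokines were higher than CTL under DZ and under SAM, and 3 of them under adenine. Of the NF-κB genes, 3 were higher under DZ and 5 under adenine and under SAM, with a median log2 fold change of 0.31, 0.50, and 0.61 beside 1.05, 1.02, and 1.14 for the chemokines. Under DZ 8 of the 10 members were called, all higher, where 22.6% of all genes were called higher. Under adenine 8 of 10 were called, all higher (30.6% of all genes), and under SAM 10 of 10 (33.7% of all genes). A rise of at least 1 log2 unit was called for 4 members under DZ, 5 under adenine, and 5 under SAM, against 1.18%, 5.81%, and 7.46% of all genes. The median of the 10 log2 fold changes was 0.66 under DZ, 0.76 under adenine, and 1.00 under SAM, while over all genes it was -0.0057, -0.0030, and -0.015. These comparisons share the CTL dishes, and the members were chosen with earlier results of these data known. The counts are therefore a description. No member was called lower than CTL in any treatment.

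**Figure D1:**
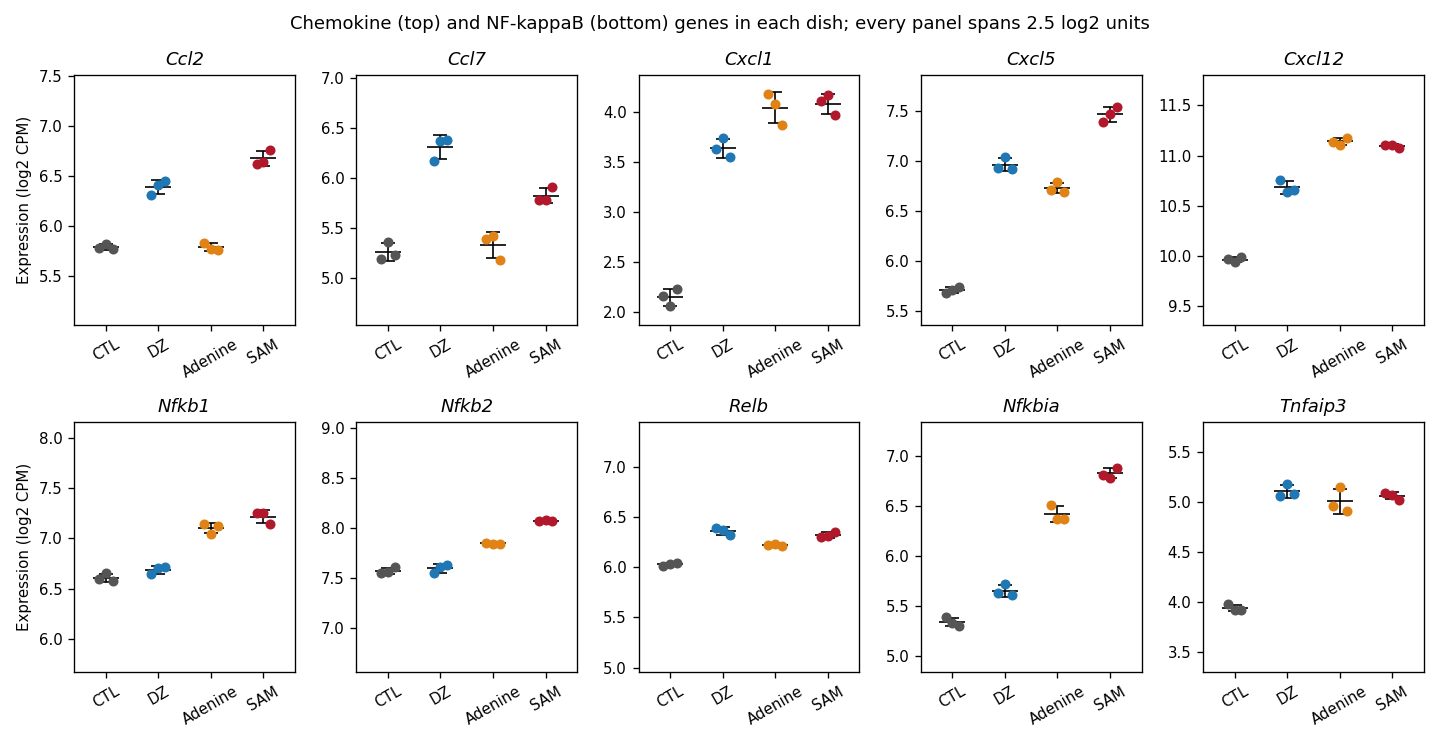
Expression in log2 CPM (vertical axis) of the 5 chemokine genes (top) and the 5 NF-κB genes (bottom) in the 3 dishes of CTL, DZ, adenine, and SAM (horizontal axis). Points are dishes, horizontal lines are means, and bars are SD (n = 3). Each panel spans 2.5 log2 units, and the SAM dishes of *Cxcl5*, between 7.39 and 7.54, lie above all other dishes of that gene.

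The chemokines *Ccl2* and *Ccl7* attract monocytes through the receptor CCR2, and their genes lie next to each other on chromosome 11 (GRCm39, 81926397 to 81928279 and 81936532 to 81938351, plus strand, 3 exons each in the canonical transcript), 8.25 kb apart. *Ccl2* stood at 5.78, 5.83, and 5.77 log2 CPM in CTL, at 6.31, 6.41, and 6.45 in DZ, at 5.84, 5.77, and 5.76 in adenine, and at 6.63, 6.64, and 6.77 in SAM. The adenine dishes overlapped with CTL, the DZ dishes lay above both, and the SAM dishes lay above DZ. The log2 fold change of *Ccl2* was 0.60 under DZ (standard error 0.044, adjusted p = 2.75e-08 from limma) and 0.89 under SAM (standard error 0.044, adjusted p = 4.39e-11). Under adenine it was -0.0032 with a 95% confidence interval from -0.098 to 0.091 (adjusted p = 0.952), and the fold change under DZ lay outside this interval.

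*Ccl7* stood at 5.19, 5.37, and 5.23 log2 CPM in CTL, at 6.18, 6.38, and 6.38 in DZ, at 5.40, 5.42, and 5.18 in adenine, and at 5.78, 5.78, and 5.91 in SAM. Here the DZ dishes were the highest, the SAM dishes came next without overlap, and the adenine dishes overlapped with CTL. *Ccl7* rose 2.07-fold under DZ (log2 fold change 1.05, standard error 0.070, adjusted p = 9.82e-09 from limma) and 1.48-fold under SAM (log2 fold change 0.56, adjusted p = 2.53e-06). The log2 fold change under adenine was 0.069 (95% confidence interval from -0.081 to 0.219, adjusted p = 0.393).

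The order of DZ and SAM was opposite in the neighbouring genes. Tested directly, *Ccl2* was lower under DZ than under SAM by a log2 fold change of -0.29 (adjusted p = 2.44e-05 from limma), and *Ccl7* was higher by 0.48 (adjusted p = 1.25e-05). The difference of *Ccl2* minus *Ccl7* within a dish, a pair picked after its values were seen and given as a description, was 0.53 ± 0.064 log2 units (SD, n = 3) in CTL and 0.46 ± 0.11 in adenine. It was 0.081 ± 0.051 in DZ, where the 2 genes had nearly equal read levels, and 0.85 ± 0.0092 in SAM. The plot of *Ccl2* against *Ccl7* shows the DZ and SAM dishes on opposite sides of the CTL difference.

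**Figure D2:**
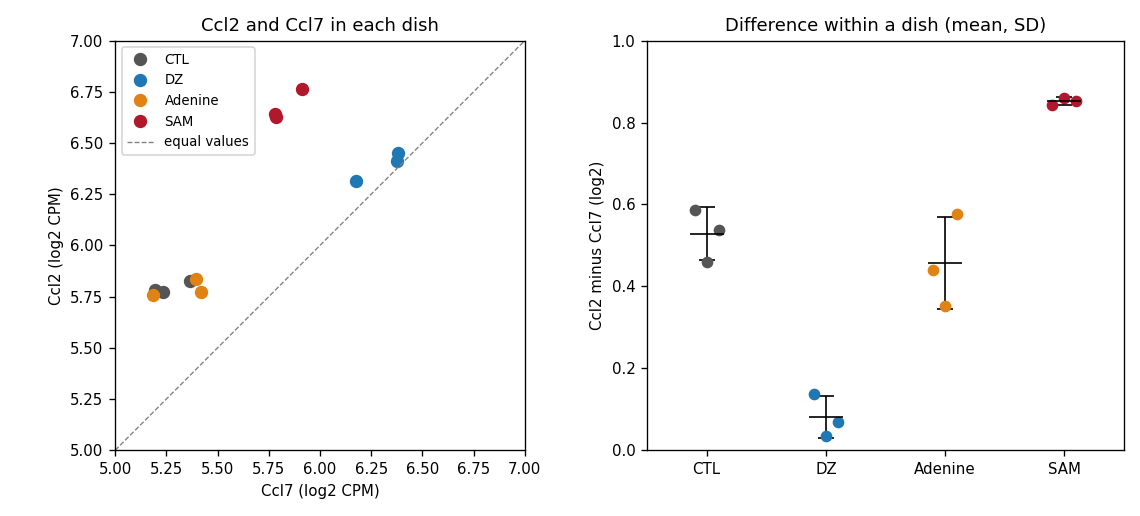
Left, *Ccl2* against *Ccl7* in log2 CPM in each of the 12 dishes, with a dashed line where both are equal. Right, the log2 difference of *Ccl2* minus *Ccl7* in each dish by group, with the mean and SD (n = 3). The DZ dishes lie near the line of equal values (mean difference 0.081), and the SAM dishes lie farthest from it (0.85).

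*Cxcl1* and *Cxcl5* encode ligands of CXCR2 that attract neutrophils, and both lie on chromosome 5 (91039094 to 91040974 and 90907186 to 90909483, plus strand), 129.61 kb apart. *Cxcl1* stood at 2.16, 2.06, and 2.23 log2 CPM in CTL, at 3.63, 3.73, and 3.55 in DZ, at 4.18, 4.08, and 3.87 in adenine, and at 4.10, 4.16, and 3.97 in SAM. All treated dishes lay above CTL, and the adenine and SAM dishes overlapped with each other and lay above DZ. This was the largest rise among the members in each treatment, 2.80-fold under DZ (log2 fold change 1.49, standard error 0.088, adjusted p = 2.67e-09 from limma), 3.71-fold in adenine dishes (1.89, adjusted p = 2.69e-11), and 3.81-fold in SAM dishes (1.93, adjusted p = 1.37e-11). Of all genes 64 had a higher log2 fold change than *Cxcl1* under DZ, 164 under adenine, and 245 under SAM. *Cxcl1* had the fewest reads of the members. Its promoter, shown above, held the κB word in 2 overlapping matches on opposite strands, and a link with the rise was not tested.

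*Cxcl5* stood at 5.68, 5.71, and 5.75 log2 CPM in CTL, at 6.93, 7.04, and 6.92 in DZ, at 6.71, 6.79, and 6.69 in adenine, and at 7.39, 7.46, and 7.54 in SAM. The 4 groups did not overlap, in the order CTL, adenine, DZ, and SAM. *Cxcl5* rose 2.38-fold under DZ (log2 fold change 1.25, standard error 0.043, adjusted p = 8.57e-12 from limma), 2.03-fold in adenine dishes (1.02, adjusted p = 8.63e-12), and 3.37-fold in SAM dishes (1.75, adjusted p = 1.23e-14). All 3 differences between treatments were called as well, the smallest being 0.23 for DZ minus adenine (adjusted p = 0.000159).

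*Cxcl12* (chromosome 6, 117144945 to 117158328, plus strand) encodes the ligand of CXCR4, which stromal cells make constitutively and which holds stem cells and lymphocytes in place. It stood at 9.97, 9.93, and 9.99 log2 CPM in CTL, at 10.76, 10.64, and 10.66 in DZ, at 11.14, 11.11, and 11.18 in adenine, and at 11.10, 11.11, and 11.08 in SAM. The DZ dishes lay between CTL and the other treatments, and the adenine and SAM dishes lay side by side. *Cxcl12* rose 1.65-fold under DZ (log2 fold change 0.72, standard error 0.034, adjusted p = 2.85e-10 from limma), 2.27-fold in adenine dishes (1.18, adjusted p = 2.12e-13), and 2.20-fold in SAM dishes (1.14, adjusted p = 1.26e-13). SAM and adenine were not called different (-0.045, 95% confidence interval from -0.119 to 0.028, adjusted p = 0.28), and with plain read totals this difference was 0.015.

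To compare the chemokines with one another, their CPM were divided by the length of the canonical transcript, between 807 bases (*Ccl7*) and 5669 bases (*Cxcl12*). On this scale *Cxcl12* was the most abundant chemokine of the 5 in every group, and *Cxcl1* the least. *Cxcl12* made up 53.3% ± 1.08 (SD, n = 3) of the summed level of the 5 genes in CTL, 49.7% ± 2.35 in DZ, 66.3% ± 1.51 in adenine, and 54.2% ± 1.37 in SAM. *Ccl2* and *Ccl7* made up 20.7% and 14.5% in CTL, 17.7% and 16.9% in DZ, 11.3% and 8.33% in adenine, and 17.7% and 9.87% in SAM. Among these 5 genes, the mixture under adenine was thus richest in *Cxcl12* and poorest in the CCR2 ligands. Other tested chemokines, such as *Cx3cl1* (8.14 log2 CPM in adenine), were not part of this sum. The share of *Cxcl5* was 10.1% in CTL, 13.6% in DZ, 11.2% in adenine, and 15.7% in SAM.

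Among the NF-κB subunits, *Nfkb1* (chromosome 3, 135290264 to 135397742, minus strand, 25 exons) encodes p105, the precursor of p50. It stood at 6.59, 6.65, and 6.58 log2 CPM in CTL, at 6.64, 6.71, and 6.71 in DZ, at 7.14, 7.05, and 7.12 in adenine, and at 7.26, 7.25, and 7.14 in SAM. The adenine and SAM dishes lay above all CTL and DZ dishes, and CTL and DZ overlapped. Adenine raised its level by 0.50 log2 units (SE 0.038, limma adjusted p = 1.13e-08) and SAM by 0.61 (adjusted p = 6.67e-10), and for DZ the difference was 0.080 (95% confidence interval from -0.0011 to 0.161, adjusted p = 0.0834).

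*Nfkb2* (chromosome 19, 46292759 to 46303812, plus strand, 23 exons) encodes p100, the precursor of p52. It stood at 7.55, 7.57, and 7.61 log2 CPM in CTL, at 7.55, 7.61, and 7.63 in DZ, at 7.85, 7.84, and 7.85 in adenine, and at 8.07, 8.08, and 8.07 in SAM. DZ and CTL overlapped, adenine was higher, and SAM was higher again. *Nfkb2* gained 0.27 log2 units in adenine (SE 0.027, limma adjusted p = 2.88e-07) and 0.50 in SAM (adjusted p = 1.43e-10), and its difference in DZ was 0.024 (95% confidence interval from -0.035 to 0.082, adjusted p = 0.476). The difference between SAM and adenine, 0.23, was called (adjusted p = 6.58e-06).

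*Relb* (chromosome 7, 19339017 to 19363425, minus strand, 12 exons) encodes the partner of p52. It stood at 6.01, 6.03, and 6.04 log2 CPM in CTL, at 6.40, 6.37, and 6.32 in DZ, at 6.22, 6.24, and 6.21 in adenine, and at 6.30, 6.31, and 6.35 in SAM. Its treated dishes all lay above CTL, with DZ and SAM overlapping. The log2 fold change was 0.33 under DZ (standard error 0.031, adjusted p = 3.11e-07 from limma), 0.19 in adenine dishes (adjusted p = 4.41e-05), and 0.29 in SAM dishes (adjusted p = 3.48e-07), so that *Relb* was the one subunit gene among the members that was called under DZ. Outside the members, the subunit gene *Rela* was also called higher under DZ (0.20, adjusted p = 9.21e-05 from limma), and *Rel* was not called. *Rela* was higher by 0.12 under adenine, called in 9 of 14 alternative fits, and by 0.19 under SAM. *Relb* and *Nfkb1* lay side by side in CTL at 4.27 and 4.37 log2 CPM per kb of transcript, below *Nfkb2* at 4.82.

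The inhibitor genes *Nfkbia* and *Tnfaip3* rose more than the subunit genes under adenine and SAM, whereas under DZ *Nfkbia* rose about as much as *Relb*. *Nfkbia* (chromosome 12, 55535332 to 55539432, minus strand, 6 exons) encodes IκBα, which holds NF-κB in the cytoplasm and is itself a target of it. It stood at 5.39, 5.33, and 5.30 log2 CPM in CTL, at 5.63, 5.72, and 5.61 in DZ, at 6.51, 6.37, and 6.37 in adenine, and at 6.81, 6.78, and 6.88 in SAM. The 4 groups formed a staircase without overlap. *Nfkbia* rose 1.24-fold under DZ (log2 fold change 0.31, standard error 0.046, adjusted p = 3.42e-05 from limma), 2.11-fold in adenine dishes (1.08, adjusted p = 1e-11), and 2.80-fold in SAM dishes (1.48, adjusted p = 1.61e-13). The gap between DZ and SAM, a log2 fold change of -1.17 (adjusted p = 2.73e-12), was the largest between any 2 treatments among the members.

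*Tnfaip3* (chromosome 10, 18874201 to 18891405, minus strand, 9 exons) encodes A20, an enzyme that edits ubiquitin chains and shuts off signalling to IKK. It stood at 3.98, 3.92, and 3.92 log2 CPM in CTL, at 5.05, 5.18, and 5.08 in DZ, at 4.96, 5.15, and 4.91 in adenine, and at 5.09, 5.07, and 5.02 in SAM. All treated dishes lay above CTL, and the treatments overlapped. *Tnfaip3* rose 2.24-fold under DZ (log2 fold change 1.16, standard error 0.059, adjusted p = 5.29e-10 from limma), 2.09-fold in adenine dishes (1.06, adjusted p = 2.36e-10), and 2.17-fold in SAM dishes (1.12, adjusted p = 8.67e-11). No difference between treatments was called for it, and the 95% confidence interval farthest from 0, of DZ minus adenine, ran from -0.025 to 0.228.

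**Figure D3:**
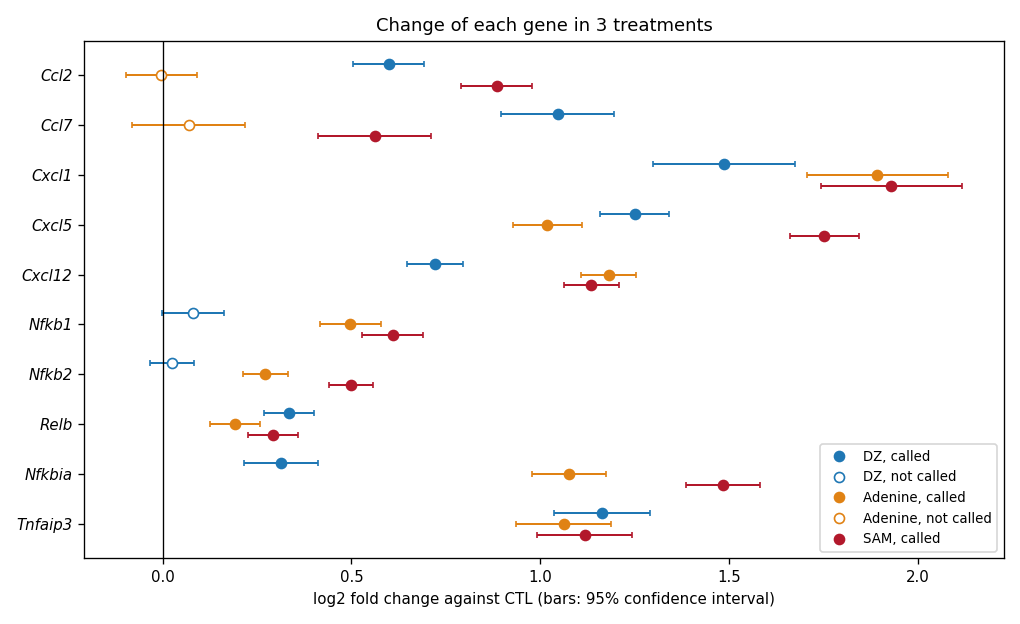
Log2 fold change against CTL (horizontal axis) of the 10 genes (vertical axis) under DZ, adenine, and SAM, with 95% confidence intervals from limma. Filled circles were called at an FDR of 0.01 and open circles were not, namely *Nfkb1* and *Nfkb2* under DZ and *Ccl2* and *Ccl7* under adenine. *Tnfaip3* lies close to 1.1 in all 3 treatments, whereas *Nfkbia* spreads from 0.31 to 1.48.

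SAM and adenine were given at the same dose and time, and 5 of 10 members differed between them, all higher under SAM, where 20.8% of all genes were called higher. These were *Ccl2* (0.89, adjusted p = 3.35e-10 from limma), *Cxcl5* (0.73, adjusted p = 2.2e-09), *Ccl7* (0.49, adjusted p = 3.09e-05), *Nfkbia* (0.41, adjusted p = 2.93e-06), and *Nfkb2* (0.23). Of all genes 95 had a higher log2 fold change than *Ccl2* in this comparison. *Cxcl1* (95% confidence interval from -0.150 to 0.224), *Cxcl12*, and *Tnfaip3* (from -0.071 to 0.181) were not called. The same held for *Nfkb1* (0.11, adjusted p = 0.0206) and *Relb* (0.10, adjusted p = 0.0118), but with plain read totals as scaling both were called higher under SAM (0.17 and 0.16). *Nfkb1* was also called without SAM replicate 3.

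DZ was given at 10 μM and the other compounds at 1 mM, so that dose and compound cannot be told apart in their comparison. Compared with adenine, 4 members were higher under DZ (*Ccl2*, *Ccl7*, *Cxcl5*, and *Relb*) and 5 were lower (*Cxcl1*, *Cxcl12*, *Nfkb1*, *Nfkb2*, and *Nfkbia*), where 32.1% and 32.2% of all genes were called higher and lower. Compared with SAM, *Ccl7* was higher under DZ and 7 members were lower, where 35.0% and 34.0% of all genes were called. *Relb* and *Tnfaip3* were not called in that comparison.

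Other genes of the pathway were read from 5 lists of names. Of 49 other chemokines and chemokine receptors, 5 were among the tested genes. Under DZ 2 of them rose and 1 fell, under adenine 3 rose and 2 fell, and under SAM 3 rose and 1 fell. These are 3, 5, and 4 calls among 5 genes, where 45.9%, 61.6%, and 69.3% of all genes were called in the respective treatments. *Cxcl10*, a ligand of CXCR3 that interferon induces, rose under DZ from 1.99 to 5.06 log2 CPM, a log2 fold change of 3.07 (adjusted p = 1.15e-10 from limma), and under adenine by 0.46 (adjusted p = 0.00659). Under SAM its log2 fold change was 0.40 (adjusted p = 0.0139), which was not called. Neither side of this threshold was stable. *Cxcl10* was called under adenine in 5 of 13 alternative fits (adjusted p from 0.00265 to 0.109 in limma) and lost without CTL replicate 1, CTL replicate 2, adenine replicate 1, or adenine replicate 2. The call was also lost with no variance trend, median centring, a pseudocount of 1 CPM, or voom. *Cxcl10* was called under SAM in 2 of 13 (0.00231 to 0.16), and SAM and adenine were not called different (-0.061, adjusted p = 0.722). *Cx3cl1*, the membrane-bound chemokine fractalkine, rose by 0.61, 1.62, and 1.85 under DZ, adenine, and SAM. *Ackr3*, a scavenging receptor for *Cxcl12* protein, rose by 2.40 in adenine dishes and 2.44 in SAM dishes, with a difference of 0.15 under DZ (adjusted p = 0.401). *Ccl25*, a thymic and intestinal chemokine, fell by 0.67, 0.81, and 1.21. *Ccl5*, chosen after its values were seen, fell by 0.53 under adenine and rose by 0.48 under SAM, with a direct difference of 1.01 (adjusted p = 5.3e-09).

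Upstream of NF-κB, 24 of 29 receptor and adaptor genes were tested. Under DZ 10 rose and 3 fell, under adenine 10 rose and 7 fell, and under SAM 11 rose and 6 fell, so that 54.2%, 70.8%, and 70.8% were called, beside 45.9%, 61.6%, and 69.3% of all genes. With median centring of the libraries 8 of 12 calls were rises under DZ, 8 of 16 under adenine, and 10 of 16 under SAM. *Traf1*, an adaptor of tumour necrosis factor receptors, started at 0.96 log2 CPM in CTL and rose by 1.84, 2.58, and 3.31 under DZ, adenine, and SAM. *Il1r1*, the receptor of interleukin 1, rose by 0.42 under DZ, 1.73 under adenine, and 1.43 under SAM. *Tlr3*, a sensor of double-stranded RNA, rose under DZ by 1.08. *Tlr2*, a receptor for bacterial lipoproteins, rose by 0.52, 0.71, and 0.61 under DZ, adenine, and SAM. *Ticam1*, the adaptor of TLR3, fell by 0.26, 0.42, and 0.83 under DZ, adenine, and SAM, the fall under DZ being called in 13 of 14 alternative fits. Chosen after their values were seen, *Myd88*, *Irak4*, and *Traf6* fell by 0.70, 0.55, and 0.45 under adenine. Under SAM these genes fell by 0.66, 0.70, and 0.53. Under DZ *Myd88* rose by 0.29, and *Irak4* and *Traf6* were not called.

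Of the 17 IKK kinases, ubiquitin ligases, and remaining subunits, 17 were tested. Under DZ 4 rose and 6 fell, under adenine 7 rose and 3 fell, and under SAM 6 rose and 4 fell, and this split moved with the scaling, to 2 rises of 8 calls under DZ and 3 of 9 under adenine with median centring and to 10 of 13 under SAM with plain read totals. The share called was 58.8% in each treatment, which was below the share of all genes under adenine (61.6%) and SAM (69.3%) and above it under DZ (45.9%). The count under DZ was 6 instead of 10 without CTL replicate 3, DZ replicate 2, or DZ replicate 3. *Rel*, the subunit c-Rel, rose by 0.70 under adenine and 0.73 under SAM. *Birc3*, a ubiquitin ligase at the tumour necrosis factor receptor, rose by 0.54 and 0.92. *Ikbkg*, the scaffold NEMO of the IKK complex, fell by 0.59 under DZ and 0.36 under adenine. *Ikbke* and *Sharpin* fell by 0.32 and 0.27 under DZ (*Ikbke* was not called without CTL replicate 1, adjusted p = 0.0115 from limma). *Tab2*, which links the receptor to the kinase TAK1, rose by 0.13 under DZ and fell by 0.40 under SAM.

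Among 21 other genes listed as inhibitors of NF-κB, 18 were tested. The list also held *Nfkbiz* and *Bcl3* of the IκB family. Whether the listed genes inhibit NF-κB in these cells was not tested. Under DZ 6 rose and 2 fell, under adenine 6 rose and 7 fell, and under SAM 5 rose and 7 fell, and with other scalings the rises were 3 of 5 calls under DZ (median centring), 7 of 12 under adenine, and 7 of 10 under SAM (plain read totals). The shares called, 44.4%, 72.2%, and 66.7%, lay near those of all genes under DZ and SAM (45.9% and 69.3%) and above it under adenine (61.6%). The count under DZ, 8 with all libraries, was 6 without CTL replicate 1 or DZ replicate 1, 5 without CTL replicate 2 or DZ replicate 3, and 4 without CTL replicate 3 or DZ replicate 2. *Nfkbie*, which encodes IκBε, rose by 0.42, 1.02, and 1.17, in the same order of treatments as *Nfkbia*. Unlike for *Nfkbia*, its SAM and adenine levels were not called different (0.16, adjusted p = 0.0327 from limma). *Nkiras2*, a small GTPase that binds IκB proteins, fell by 0.81 under adenine and 1.14 under SAM. *N4bp1* fell by 0.32 under adenine and 0.65 under SAM, and rose by 0.15 under DZ, a rise called in 7 of 14 alternative fits. *Commd1* fell by 0.53 under adenine and by 0.34 under SAM, the latter called in 7 of 14 alternative fits. *Nfkbil1* rose by 0.31 under DZ. *Rnf11* also went both ways, with a rise of 0.26 under DZ and a log2 fold change of -0.25 under SAM (adjusted p = 1.63e-06 from limma).

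Of 38 other target genes of NF-κB, 22 were tested. The others, among them *Tnf*, *Il1b*, *Il6*, and *Icam1*, lay under 1 CPM in at least 1 sample. The counts therefore cover only targets that reached 1 CPM in every sample. Under DZ 13 rose and 1 fell, under adenine 11 rose and 4 fell, and under SAM 11 rose and 5 fell. The shares called were 63.6%, 68.2%, and 72.7%, beside 45.9%, 61.6%, and 69.3% of all genes. The median of their log2 fold changes was 0.26, 0.14, and 0.16 in DZ, adenine, and SAM. The secreted proteases *Mmp13* and *Mmp3* were the largest rises, with log2 fold changes of 1.88 and 1.54 under DZ, 2.03 and 2.48 under adenine, and 3.47 and 2.99 under SAM. *Mmp13* started at 0.26 log2 CPM in CTL, near the filter of 1 CPM. *C3*, the central protein of complement, rose by 1.17, 1.54, and 1.25 under DZ, adenine, and SAM. *Mmp9*, a gelatinase, started at 0.78 log2 CPM in CTL (SD 0.41) and rose by 1.66 under adenine and 1.41 under SAM. Under DZ its log2 fold change was -0.24 (adjusted p = 0.22 from limma). *Ptx3*, a secreted pattern recognition protein, went the other way, from 6.90 log2 CPM in CTL to 4.39 in SAM, a log2 fold change of -2.51.

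**Figure D4:**
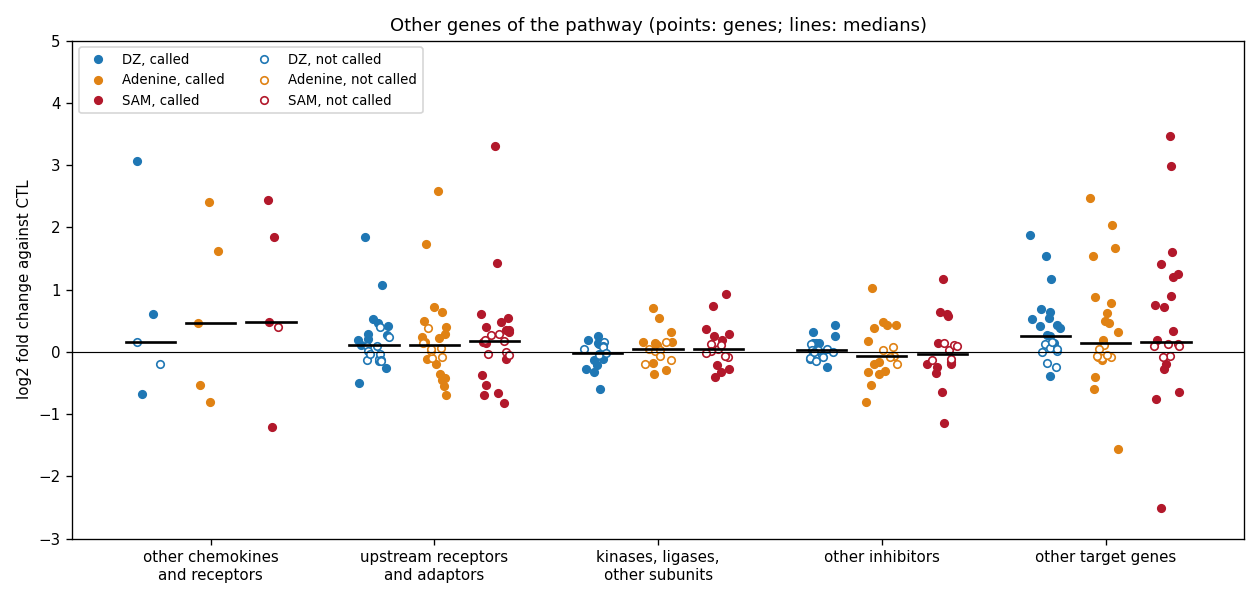
Log2 fold change against CTL (vertical axis) of the tested genes in 5 lists of pathway genes (horizontal axis) under DZ, adenine, and SAM. Points are genes, filled where called at an FDR of 0.01, and black lines are medians. Each list holds genes on both sides of 0, with medians between -0.074 (inhibitors under adenine) and 0.48 (other chemokines under SAM).

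For each member the protein-coding gene with the most similar course was found among 9580 genes whose mean reached 3 log2 CPM, by the root mean square difference of the 12 values relative to the CTL mean. For the inhibitor *Nfkbia* this was *Gnb4* (difference 0.061 log2 units), with 0.27, 1.08, and 1.48 under DZ, adenine, and SAM. For *Ccl2* it was *Apbb1ip* (0.105), for *Ccl7* *Slc43a3* (0.132), for *Cxcl1* *Fndc1* (0.136), for *Cxcl5* *Spry1* (0.209), and for *Cxcl12* *Mgp* (0.112). For the subunits it was *Rad21* (*Nfkb1*, 0.043), *Ephb4* (*Nfkb2*, 0.033), and *Mrfap1* (*Relb*, 0.034), and for *Tnfaip3* *Col8a1* (0.092). Within the set *Ccl2* and *Ccl7* were the closest to each other (0.284), as were *Nfkb1* and *Nfkb2* (0.134) and *Cxcl12* and *Tnfaip3* (0.244), whereas the closest member to *Nfkbia* was *Cxcl12* (0.282).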

How the data were processed

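Polyadenylated RNA of 12 dishes was sequenced. The authors trimmed reads with Trimmomatic, aligned them to GRCm39 with HISAT2 guided by GENCODE vM27, quantified them with StringTie, and analysed with edgeR those genes that reached 1 CPM in every sample. Tool versions are not given in the sources used here. In the deposited table, values are log2 CPM on normalized library sizes, and all of its 12 columns were used. Reads were recovered from it with a prior count of 2 (100% of values within 0.05 of a whole read) for the depth and for voom. The log2 values were fitted with limma 3.58.1 in R 4.3.3 (4 groups in 1 model, variance trend, Benjamini-Hochberg adjustment over 12591 genes, FDR 0.01), and the fit and the recovery were tested on simulated data. Positions, transcript lengths, and symbols are from GENCODE vM39 (12575 identifiers matched). The members, lists, and naming rules were chosen with earlier results of these data known. From each list, the 3 called genes with the largest absolute change per treatment were named. *Ccl5*, *Myd88*, *Irak4*, *Traf6*, and *Rela* were named outside this rule. *Nfkbiz*, *Bcl3*, and some untested target genes were named without values. Alternatives were no trend, robust empirical Bayes, a mean of at least 3 log2 CPM, median centring, a pseudocount of 1 CPM, FDR 0.05, a required change of 1 log2 unit, a replicate block, voom, plain read totals, and leaving out each library.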

Additional observations from a re-analysis of the deposited data

How the results depend on the processing

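The number of members called kept within 1.5 times its value under every alternative run except a required change of at least 1 log2 unit. With that requirement the calls were 4 of 10 for DZ against CTL (8 without it), 5 for adenine (8), 5 for SAM (10), 0 for SAM against adenine (5), 0 for DZ against adenine (9), and 1 for DZ against SAM (8), since most differences were smaller than a doubling. Leaving out 1 library left 8, 8, 10, 9, and 8 calls, and between 5 and 6 for SAM against adenine, a comparison that had 7 calls with plain read totals or an FDR of 0.05 and 6 with median centring. Among the log2 fold changes of members without 1 library, 354 kept direction and call, 1 became called (*Nfkb1* for SAM minus adenine without SAM replicate 3, 0.15), and 5 turned sign. The sign turned only for differences that were not called. With plain read totals these were *Ccl2* under adenine (0.058), *Cxcl12* for SAM minus adenine (0.015), *Relb* for DZ minus SAM (-0.056), and *Tnfaip3* for DZ minus SAM (-0.050). Without 1 library they were *Ccl2* under adenine (-0.026 to 0.013) and *Cxcl1* for SAM minus adenine (-0.049 to 0.11). Among the lists, medians near 0 changed sign with the scaling, namely those of the kinases and ligases in each treatment and of the inhibitors under SAM (0.082 with plain read totals).

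The replicate numbers did not pair the dishes. Deviations of same-numbered dishes from their group means correlated between -0.142 and 0.181, with 1 of 18 pairs over 0.1, and a fit with the replicate number as a block called 8, 8, 10, 5, 9, and 8 members in the 6 comparisons, the same counts as without it. Groups of 3 dishes and the 196 to 1019 reads of *Cxcl1* limit the precision.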
